A study of Mus musculus with 31 samples.

Results

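The 150 regions described here recurred in peak lists of both histone marks of this series. They were found by merging the peaks of 31 deposited lists wherever peaks overlapped by at least 1 base, and were selected on those calls: each had a peak in at least 5 H3K4me3 and at least 5 H3K4me1 libraries, lay on 1 of the 19 autosomes and was at most 10 kb wide. They are 150 of 23504 merged regions in all, and the other 22547 merged autosomal regions serve as the comparison. The libraries came from ChIP-seq of the whole hippocampus of 16 C57BL6 mice aged 30 days, with Abcam antibodies against trimethylated (H3K4me3) or monomethylated (H3K4me1) lysine 4 of histone H3. The groups were heterozygotes (Het, KMT2D+/bGeo) given the LSD1 inhibitor TAK-418, Het mice given vehicle, wild type mice (WT, KMT2D+/+) given TAK-418, and WT mice given vehicle. TAK-418 was given by mouth at 1 mg/kg/day in methylcellulose for 2 weeks from 2 weeks of age, and vehicle mice received methylcellulose alone. Each group had 4 H3K4me3 and 4 H3K4me1 libraries, except WT TAK-418, which had 3 H3K4me1 libraries.

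H3K4 trimethylation is the mark of nucleosomes beside active promoters, and monomethylation that of enhancers and promoter flanks, so the marks usually peak at different places around a gene. KMT2D is a methyltransferase that places monomethylation at enhancers, and LSD1 (Kdm1a) removes mono- and dimethylation from the same lysine. A peak caller reports a place where reads pile up over the local background. Assemblies also hold repeated sequence, such as satellite arrays, ribosomal RNA arrays and recently duplicated gene clusters, where reads of more than 1 copy can be placed on the same bases.

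Promoters at the recurring regions were few. Their sequence was read from RefSeq (build GRCm38.p6) as windows of 300 bases, 250 before and 50 after a transcription start. Of 31396 autosomal windows, 15 windows of 13 genes overlapped a recurring region. Windows were compared by their 270 overlapping words of 31 bases on both strands, and a window counted as shared when at least 135 of its words stood in the window of another gene more than 1 kb away. By that measure 5 of the 15 windows (33.3%) were shared, beside 139 of 13756 windows (1.01%) at the other merged autosomal regions and 916 of all 31396 (2.92%). No test was made of this difference. The sequences below show a shared promoter from each of the 3 largest clusters, on chromosomes 8, 1 and 4, and, for contrast, a CpG-rich promoter among the recurring regions. Each runs 5′ to 3′ on the strand of its gene. In the gene pairs, capitals mark bases with no counterpart in the other window, and in Brox they mark CG dinucleotides.
4930467E23Rik: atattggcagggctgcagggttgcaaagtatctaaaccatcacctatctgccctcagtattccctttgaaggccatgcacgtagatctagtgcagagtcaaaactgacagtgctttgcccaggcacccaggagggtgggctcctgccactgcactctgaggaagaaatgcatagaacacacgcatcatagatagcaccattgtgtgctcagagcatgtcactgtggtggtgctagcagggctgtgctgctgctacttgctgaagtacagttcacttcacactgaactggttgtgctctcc
A530032D15Rik: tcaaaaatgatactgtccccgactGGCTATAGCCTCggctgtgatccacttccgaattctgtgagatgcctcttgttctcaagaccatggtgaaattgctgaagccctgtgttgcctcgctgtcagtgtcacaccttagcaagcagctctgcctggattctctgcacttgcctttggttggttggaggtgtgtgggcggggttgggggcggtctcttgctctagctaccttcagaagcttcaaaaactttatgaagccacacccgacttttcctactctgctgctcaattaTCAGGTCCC
C130026I21Rik: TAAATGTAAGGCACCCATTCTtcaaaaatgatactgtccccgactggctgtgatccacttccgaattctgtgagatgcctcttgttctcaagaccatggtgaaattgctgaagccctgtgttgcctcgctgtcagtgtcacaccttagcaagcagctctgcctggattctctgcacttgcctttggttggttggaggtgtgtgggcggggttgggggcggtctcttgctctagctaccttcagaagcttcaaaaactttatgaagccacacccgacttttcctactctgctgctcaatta
Zfp979: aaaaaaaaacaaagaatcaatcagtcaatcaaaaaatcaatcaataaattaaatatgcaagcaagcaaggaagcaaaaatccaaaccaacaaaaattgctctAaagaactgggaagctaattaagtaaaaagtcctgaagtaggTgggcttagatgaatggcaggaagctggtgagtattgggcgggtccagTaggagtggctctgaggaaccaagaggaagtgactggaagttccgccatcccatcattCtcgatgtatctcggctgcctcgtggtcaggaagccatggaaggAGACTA
Rex2: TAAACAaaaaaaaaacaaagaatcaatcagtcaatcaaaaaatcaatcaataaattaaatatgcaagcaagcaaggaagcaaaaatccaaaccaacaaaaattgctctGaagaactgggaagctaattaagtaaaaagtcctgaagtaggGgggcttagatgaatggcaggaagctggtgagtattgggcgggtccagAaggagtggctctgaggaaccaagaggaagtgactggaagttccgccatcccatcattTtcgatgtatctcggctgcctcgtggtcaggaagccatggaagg
Brox: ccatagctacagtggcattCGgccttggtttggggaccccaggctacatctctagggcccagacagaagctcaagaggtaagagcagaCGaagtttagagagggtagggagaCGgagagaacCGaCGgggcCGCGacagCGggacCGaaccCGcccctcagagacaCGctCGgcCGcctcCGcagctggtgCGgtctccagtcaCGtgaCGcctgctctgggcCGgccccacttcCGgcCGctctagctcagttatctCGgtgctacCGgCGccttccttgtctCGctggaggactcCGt

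The window of 4930467E23Rik (chr8:19729326-19729625, plus strand) has no capitals because all of its 300 bases were repeated in the window of Gm15319 (chr8:20363153-20363452, minus strand), in the same cluster. A530032D15Rik (chr1:85109804-85110103, minus strand) shared 225 of 270 words with C130026I21Rik (chr1:85270517-85270816, minus strand), and 279 of 300 bases could be matched in order. Zfp979 (chr4:147642459-147642758, minus strand) shared 140 words with Rex2 (chr4:147021600-147021899, plus strand), and 290 bases matched. The other shared windows were those of Gm7609, with 189 words in the window of Sp100, and of Gm51573, with 142 words in the window of Gm51593. The Brox window (chr1:183296959-183297258, minus strand) held 25 CG dinucleotides and no word found in another gene's window. The median over all autosomal windows was 7 CG dinucleotides, and over the 15 windows at recurring regions it was 3.

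A smaller share of recurring than of other regions lay near an end of a protein-coding gene, where the start and the far end both counted. A gene end lay within 2 kb of 62 of the 150 regions (41.3%), beside 14272 of 22547 other merged autosomal regions (63.3%). For protein-coding genes the counts were 27 regions (18%) and 12560 regions (55.7%). Pseudogene ends were near 30 recurring regions (20%), against 638 other regions (2.83%), and 52 recurring regions (34.7%) had neither a gene end within 2 kb nor a gene across them, against 3410 other regions (15.1%). The recurring regions had a median width of 2879 bases (252 to 9918) and covered 512.1 kb, and the other regions had a median width of 957 bases, so a wider region had more room for a gene end. None of 44 marker genes of hippocampal, glial, vascular and blood cells, and no gene of the immediate early, H3K4 methyltransferase or H3K4 demethylase lists, had an end within 2 kb of a recurring region. Of the 22547 other regions, 20 (0.0887%), 20 (0.0887%) and 18 (0.0798%) lay at such ends for the immediate early, methyltransferase and demethylase genes. The absence among 150 regions is near those shares and sets the recurring regions apart in nothing. No such share was computed for the marker genes.

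Clusters and counts per chromosome were described for the recurring regions alone, with none computed for the other merged regions. With members joined across gaps of up to 500 kb, 93 of the 150 regions fell into 17 clusters, and 53 fell into the 3 largest. Chromosome 8 held 32 regions, chromosome 1 held 27 and chromosome 4 held 16. In addition, 15 of the 150 (10%) began within the first 3.5 Mb of their chromosome, on 9 chromosomes, against 142 of the other regions (0.63%). Mouse chromosomes carry the centromere at that end, and their assembled sequence begins next to it.

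The largest cluster held 28 regions over 1221 kb of chromosome 8 (19727868 to 20948653), among predicted genes such as Gm21119, Gm15319, 2610005L07Rik and AY761185. Its regions had low enrichment, and 3 of them were among the 5 with the largest excess of H3K4me3 over H3K4me1. Their mean fold enrichment, the authors' ratio of peak signal to local background, had a median of 4.62 in H3K4me3 (4.15 to 9.59) and 4.78 in H3K4me1 (4.39 to 5.71). A second cluster held 18 regions over 673.5 kb of chromosome 1 (84961489 to 85635010), around Sp110, Sp140 and related predicted genes, which encode interferon-induced speckled proteins of nuclear bodies. Its median enrichment was 4.91 in H3K4me3 (4.34 to 5.80) and 5.14 in H3K4me1 (4.54 to 6.01). A pair of clusters on chromosome 4, with 6 and 7 regions, lay among the zinc finger genes Zfp992, Zfp600, Zfp978, Zfp979 and Rex2, a family of DNA-binding repressors that has multiplied in rodents. Their medians were 4.67 and 4.73 in H3K4me3 and 4.88 and 4.90 in H3K4me1.

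Gene families were counted by symbol at gene ends within 2 kb. Zinc finger genes were near 5 recurring regions (3.33%), against 476 other regions (2.11%), and lay across 12 recurring regions. Predicted genes with Gm symbols were near 40 (26.7%), against 3039 (13.5%). Transfer RNA genes were near 2 regions (1.33%), against 136 (0.603%). The Duxf and Dux family, homeobox factors of the early cleavage embryo, was near 2 regions, against 3 others. The family patterns were chosen with earlier results of these data known, and these counts carry no test.

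Single regions stood at other repeated genes. The region at Rn18s-rs5, a copy of small-subunit ribosomal RNA sequence (chr17:39842897-39848840), had a peak in all 31 libraries and averaged 42.9 ± 11.3 fold in H3K4me3 (SD, n = 16) and 33.9 ± 9.14 fold in H3K4me1 (SD, n = 15). The regions at transfer RNA genes beside Fcgr3, an Fc receptor gene, averaged 6.14 ± 2.49 fold in H3K4me3 (n = 14) and 4.78 ± 0.478 fold in H3K4me1 (n = 8) at chr1:171063719-171067192, and 5.67 and 5.01 fold at chr1:171075823-171083701. The Fcgr3 region also holds Mir6546, whose mature forms are printed because it was the one microRNA gene within 2 kb of a recurring region, with the seed, bases 2 to 8, in capitals.
mmu-miR-6546-5p: aGGCGCCUcugagcuugugcuugu
mmu-miR-6546-3p: gAGCGAAGcccaagcgccaga

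At Duxf3 (chr10:58229693-58235244) the mean was 7.14 ± 1.43 fold in H3K4me3 (n = 16) and 6.07 ± 0.624 fold in H3K4me1 (n = 15). Inside Snhg14, the long RNA that carries small nucleolar RNAs of the imprinted Snrpn domain, the region at chr7:59767026-59772267 averaged 6.14 fold in H3K4me3 and 7.13 fold in H3K4me1. The region 2 bases from the end of Wls, which carries Wnt proteins to the cell surface (chr3:159938668-159939691), averaged 47.3 fold in H3K4me3 and 55.8 fold in H3K4me1. Weak regions also stood at Gm10222 and Gm10925 on chromosome 1, with 4.31 and 4.78 fold, and at Pisd, the phosphatidylserine decarboxylase gene, with 5.17 and 4.88 fold.

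The highest enrichments were far above these and lay far from gene ends. The region at chr2:98662217-98667403, 1030545 bases from the nearest protein-coding gene, Lrrc4c, averaged 14717 ± 4109 fold in H3K4me3 (n = 16) and 13331 ± 3799 fold in H3K4me1 (n = 15). Its H3K4me3 values were 18259, 16046, 7160 and 16215 in Het TAK-418, 16933, 5214, 16412 and 15977 in Het vehicle, 17550, 17620, 17110 and 15786 in WT TAK-418, and 16108, 16519, 7550 and 15010 in WT vehicle. Its H3K4me1 values were 16233, 17729, 13996 and 6678 in Het TAK-418, 15952, 5836, 6296 and 14163 in Het vehicle, 15065, 15543 and 14478 in WT TAK-418, and 14100, 14734, 15419 and 13749 in WT vehicle. The values of all groups overlapped in both marks. The next were chr9:35305201-35305610 inside Gm33838, with 3624 and 3291 fold, chr12:3109854-3110127, with 3106 and 2804 fold, inside Chl1, a neural cell adhesion gene (chr6:103649041-103649314), with 1903 and 1574 fold, and chr14:19415391-19419717, with 1732 and 1606 fold, H3K4me3 first. These 5 were the only regions with a mean above 100 fold in H3K4me3, and 58 of the 150 averaged under 5 fold.

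**Figure D1:**
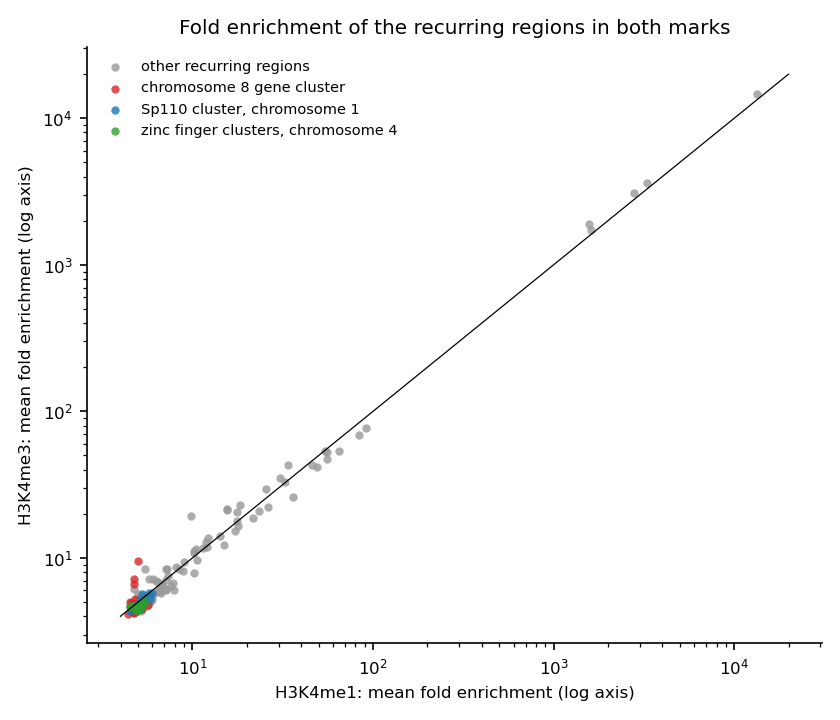
Mean fold enrichment over libraries with a peak, H3K4me3 on the vertical and H3K4me1 on the horizontal log axis, for the 150 recurring regions; the line marks equal values. Points run along the line over the whole range, and the gene clusters of chromosomes 8, 1 and 4 sit together at its low end.

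Over libraries with a peak, mean enrichment was nearly the same in both marks. The ratio of the H3K4me3 to the H3K4me1 mean had a median of 0.977 and ranged from 0.718 to 1.98, and 4 of the 150 regions exceeded a ratio of 1.5 with all libraries, and 1 did without the 4 H3K4me3 libraries of over 10000 peaks; 0 lay under the inverse in either. Across the 150 regions the log2 means had a Pearson correlation of 0.994 and a Spearman correlation of 0.874, a description over regions that share the same libraries. The largest ratios were at chr1:195241483-195242010 (1.98), chr8:20121416-20124898 (1.92), chr6:47770220-47773231 (1.54), chr8:20422066-20426101 (1.53) and chr8:20544133-20554050 (1.40). The smallest were at chr10:72297171-72297742 (0.718), inside Vps45, a vesicle fusion gene (0.764), at chr10:3109517-3117150 (0.769), at chr9:124256306-124258014 (0.820) and at chr12:120028658-120029032 (0.823). Because a region had to be called in both marks to be counted, regions strong in one mark alone could not enter. A library without a peak gave no value, so only enrichments high enough to be called were compared. These means therefore cannot show that weak regions carry both marks equally. The means at chr8:20121416-20124898 rest on 16 H3K4me3 and 8 H3K4me1 libraries, and those at chr1:195241483-195242010 on 14 and 7.

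limma on log2 enrichment found no difference between the marks in any of 175 merged autosomal regions that were called 5 or more times in each mark, at an adjusted p (Benjamini-Hochberg) under 0.05 (background 0% called). Unadjusted, 28 of the 175 and 24 of the 150 recurring regions had p under 0.05, and the smallest adjusted p was 0.0819. The 95% interval of the difference reached a median of 0.26 on the log2 scale, or 1.20 fold, to either side, so smaller differences could not be seen. The interval is not adjusted for the number of regions tested, so larger differences could go uncalled too. Libraries without a peak were missing from this fit, so differences in how often a region was called did not enter it. With all libraries, chr1:195241483-195242010 had a log2 difference of 0.89 ± 0.25 (SE) and was not called (adjusted p 0.0819 from limma). With the 4 H3K4me3 libraries of over 10000 peaks left out, 4 of 166 regions were called (2.41%), 3 of them recurring regions. These were chr1:195241483-195242010, with a log2 difference of 0.64 ± 0.13 (SE) and an adjusted p of 0.00837 from limma, the Duxf3 region, with 0.28 ± 0.05 and 0.00342, and a region inside Zc3h7a, an RNA-binding zinc finger gene, with 0.62 ± 0.16 and 0.0265. All 3 were higher in H3K4me3.

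The libraries differed more than the groups did. The H3K4me3 libraries of Het TAK-418 mouse 814, Het vehicle mouse 844, WT TAK-418 mouse 813 and WT vehicle mouse 846 had 16167, 16390, 16750 and 13343 peaks, the other 12 had 302 to 2281, and the 15 H3K4me1 libraries had 88 to 456. In the 4 long lists 0.555% to 0.959% of the peaks fell in recurring regions, in the 12 others 7.06% to 39.4%, and in the H3K4me1 lists 34.8% to 62.5%. Of 8 excitatory neuron markers, 6 had a peak at a gene end in all 4 long lists. The counts were 3 of 6 for the oligodendrocyte lineage and 2 of 5 each for inhibitory neurons and astrocytes. Vascular cells and choroid plexus had 1 of 5 each, and microglia and blood had 0 of 5 each. Such peaks were common, at 9618 regions with a protein-coding gene end and no H3K4me1 peak. The share over all genes was not computed, so the marker counts are no check of the labelled tissue. Whole tissue was used, so fewer cells with a mark and less mark per cell cannot be told apart. No pair of libraries had identical peak lists.

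Each library held a peak in 48 to 142 of the recurring regions, and 33 regions had a peak in all 31. In H3K4me3 the counts were 117, 110, 133 and 137 in Het TAK-418, 118, 78, 81 and 136 in Het vehicle, 124, 99, 125 and 133 in WT TAK-418, and 142, 131, 83 and 94 in WT vehicle. In H3K4me1 they were 116, 115, 118 and 100 in Het TAK-418, 134, 123, 93 and 96 in Het vehicle, 135, 115 and 82 in WT TAK-418, and 135, 79, 101 and 48 in WT vehicle. The groups overlapped in both marks, and the count of 48 belonged to the library with 88 peaks. Over the 33 regions found everywhere, the median enrichment of a library ran from 6.97 to 33.0 fold in H3K4me3 and from 9.57 to 27.02 fold in H3K4me1. At the selection limit, 20 regions had exactly 5 libraries in their rarer mark, with median enrichments of 4.78 in H3K4me3 and 4.92 in H3K4me1, and 39 regions with 4 such libraries fell just outside, with 4.63 and 4.62.

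**Figure D2:**
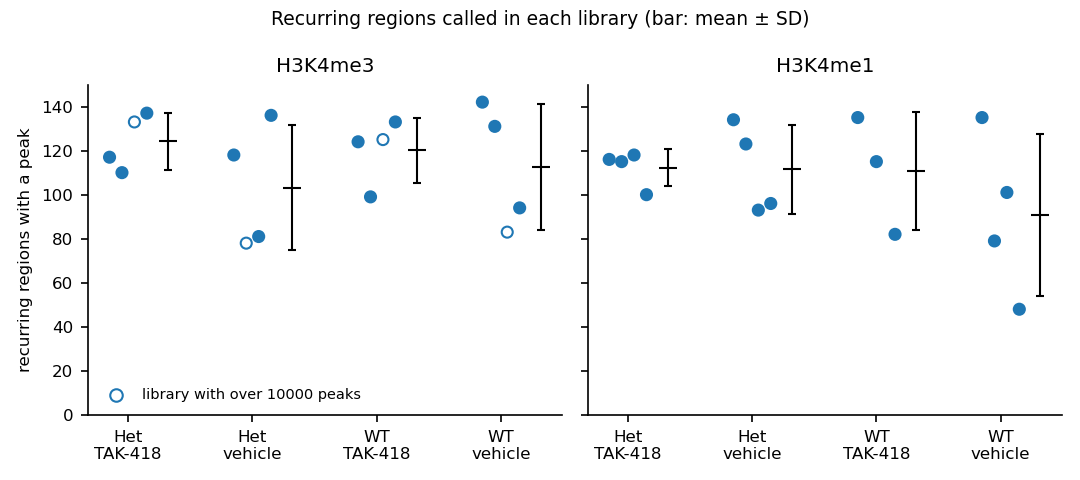
Number of the 150 recurring regions with a peak in each library, by group, for H3K4me3 (left) and H3K4me1 (right); bars give the mean ± SD and open points the 4 libraries with over 10000 peaks. Het TAK-418, Het vehicle, WT TAK-418 and WT vehicle overlap, and the lowest point is a WT vehicle H3K4me1 library with 48 regions.

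The long-list libraries were above all others at some regions and below them at others. Of the 59 regions with a peak in all 4 long lists and in at least 1 other H3K4me3 list, the long-list libraries stood above every other library with a peak at 5, below them at 2 and overlapped them at 52. Of the 41 regions with a peak in all 16 H3K4me3 libraries, the 4 long-list libraries stood below all 12 others at 2, above all 12 at 1 and overlapped them at 38. At the ends of Brox, an endosomal sorting gene, and Aida, an axin partner (chr1:183296394-183299603), the H3K4me3 values were 19.8, 25.4, 13.4 and 25.1 fold in Het TAK-418, 26.0, 7.44, 20.5 and 38.8 in Het vehicle, 25.3, 15.3, 8.46 and 30.1 in WT TAK-418, and 33.6, 21.4, 7.08 and 16.1 in WT vehicle. The long-list library was the lowest of its group in each case, at 13.4, 7.44, 8.46 and 7.08. H3K4me1 at the same promoter was 25.0, 20.4, 30.6 and 20.1 fold in Het TAK-418, 24.2, 21.4, 22.6 and 23.6 in Het vehicle, 38.4, 23.7 and 20.7 in WT TAK-418, and 26.6, 21.4, 24.0 and 8.92 in WT vehicle. H3K4me3 averaged 20.9 ± 9.28 fold (n = 16) and H3K4me1 averaged 23.4 ± 6.19 fold (SD, n = 15).

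The Sp110 region (chr1:85602873-85611852) was the other one with long-list libraries below all others, at 2.94 to 5.47 fold against 5.78 to 7.22 fold. Long-list libraries were above all others at chr8:20121416-20124898, in the chromosome 8 cluster. There the 4 long-list libraries had 21.95 fold in Het TAK-418, 17.6 in Het vehicle, 23.0 in WT TAK-418 and 16.2 in WT vehicle, while the other 12 ranged from 4.25 to 8.81 fold and the 8 H3K4me1 libraries with a peak averaged 4.99 ± 0.731 fold. The other regions of this kind were chr6:47770220-47773231, with 11.7 to 22.4 fold in long-list libraries and 4.44 to 7.55 fold in the others, chr8:20422066-20426101, with 10.5 to 17.0 and 4.10 to 6.52 fold, chr8:20544133-20554050, with 8.63 to 12.1 and 4.32 to 5.57 fold, and the Fcgr3 region at chr1:171063719-171067192, with 5.71 to 12.9 and 4.48 to 5.57 fold. Without the 4 long lists the ratio between the marks was 1.247 at chr8:20121416-20124898 and 1.05, 1.03, 1.02 and 1.06 at these 4 regions in the same order. At chr8:20121416-20124898 the log2 difference was 0.72 ± 0.27 with all libraries and 0.30 ± 0.12 without them (adjusted p from limma 0.218 and 0.223).

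Differences of enrichment between groups were tested with limma wherever every group had 2 or more libraries with a peak. In H3K4me3, 145 regions were tested, 107 of them recurring regions, and 0 were called in each of the 4 contrasts (0% called). At an unadjusted p under 0.05 the counts were 1 for Het vehicle against WT vehicle, 7 for Het TAK-418 against Het vehicle, 0 for WT TAK-418 against WT vehicle and 6 for Het TAK-418 against WT vehicle. The median log2 difference of the recurring regions was 0.26 for Het TAK-418 against Het vehicle and 0.21 for Het TAK-418 against WT vehicle, beside 0.23 and 0.18 over all regions tested. Leaving out each library in turn, those with long lists included, gave 0 calls in every H3K4me3 contrast.

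In H3K4me1, 109 regions were tested, 86 of them recurring regions, and every region called was a recurring one. Most regions tested were recurring ones and few were called, so this is no trait of the recurring regions. Het TAK-418 against WT vehicle gave 5 called regions (4.59%), Het vehicle against WT vehicle gave 1 (0.917%), WT TAK-418 against WT vehicle gave 1 (0.917%) and Het TAK-418 against Het vehicle gave 0 (0%, with 1 region at an unadjusted p under 0.05). All were lower in WT vehicle, which the 3 contrasts with calls share.

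The region called in 3 contrasts lies at chr13:74528460-74531000, inside the predicted gene Gm20590 and 34448 bases from the nearest protein-coding end, that of the zinc finger gene Zfp825. Its H3K4me1 enrichment was 34.2, 38.5, 41.4 and 21.1 fold in Het TAK-418, 25.0, 25.3, 29.4 and 27.9 in Het vehicle, 38.4, 24.3 and 25.5 in WT TAK-418, and 16.7, 14.3, 12.9 and 9.71 in WT vehicle. Every WT vehicle library lay below every library of the other groups. The log2 difference from WT vehicle was 1.31 ± 0.22 (SE) for Het TAK-418, 1.03 ± 0.22 for Het vehicle and 1.13 ± 0.24 for WT TAK-418, with adjusted p of 0.00377, 0.0394 and 0.0343 from limma. H3K4me3 of the same region was 22.8, 24.9, 66.4 and 31.5 fold in Het TAK-418, 26.95, 16.8, 22.3 and 37.8 in Het vehicle, 32.7, 21.1, 16.8 and 34.3 in WT TAK-418, and 36.5, 28.5, 18.8 and 34.1 in WT vehicle. There the groups overlapped, and the adjusted p was 0.942 for Het TAK-418 against WT vehicle (log2 difference 0.21 ± 0.35).

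The other 4 regions called for Het TAK-418 against WT vehicle behaved alike in direction. At 2700054A10Rik, a long noncoding RNA gene (chr17:13545914-13553209), H3K4me1 was 39.7, 43.7, 52.9 and 26.8 fold in Het TAK-418 and 26.5, 17.8, 16.1 and 13.2 fold in WT vehicle (log2 difference 1.15 ± 0.22, adjusted p 0.00634 from limma). Within Smo, the transducer of Hedgehog signals (chr6:29747681-29749098), it was 13.1, 16.5, 17.2 and 12.2 fold in Het TAK-418 and 10.6, 7.88, 6.64 and 6.65 fold in WT vehicle (0.90 ± 0.18, 0.00642). All 4 Het TAK-418 libraries exceeded all 4 WT vehicle libraries in both. The remaining regions were chr3:60045103-60045986, 4946 bases from Aadac, with 0.98 ± 0.24 and an adjusted p of 0.0266 from limma, and chr4:118546950-118548737 at Gm40237, with 0.97 ± 0.26 and 0.0459. At these 4 regions H3K4me1 was also above WT vehicle in Het vehicle (log2 difference 0.65 to 0.85) and in WT TAK-418 (0.50 to 0.83), uncalled. Het TAK-418 exceeded Het vehicle by only 0.19 to 0.33 (adjusted p 0.934 from limma). In H3K4me3 the adjusted p for Het TAK-418 against WT vehicle was 0.942 at each.

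Over the 33 regions found in all libraries, the median H3K4me1 enrichment was 20.8, 27.02, 22.6 and 16.5 fold in Het TAK-418, 22.7, 18.9, 19.8 and 14.5 fold in Het vehicle, 22.4, 20.6 and 15.3 fold in WT TAK-418, and 20.4, 14.3, 16.1 and 9.57 fold in WT vehicle. WT vehicle held the lowest library and overlapped each other group, and no test was made of these medians. The part of this in the calls was not tested beyond 1 alternative: with each library centred on its own median, 2 of the 5 regions were still called for Het TAK-418 against WT vehicle, the one nearest Zfp825 (log2 difference 0.88, adjusted p 0.0095 from limma) and 2700054A10Rik (0.71, 0.0483). With 1 library left out in turn the adjusted p stayed under 0.05 at those 2 regions and at Smo, and reached 0.0982 near Aadac and 0.19 at Gm40237. For Het vehicle and for WT TAK-418 against WT vehicle it reached 0.168 and 0.261 at the region nearest Zfp825, and with centring the adjusted p there was 0.0978 for Het vehicle and 0.0172 for WT TAK-418.

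**Figure D3:**
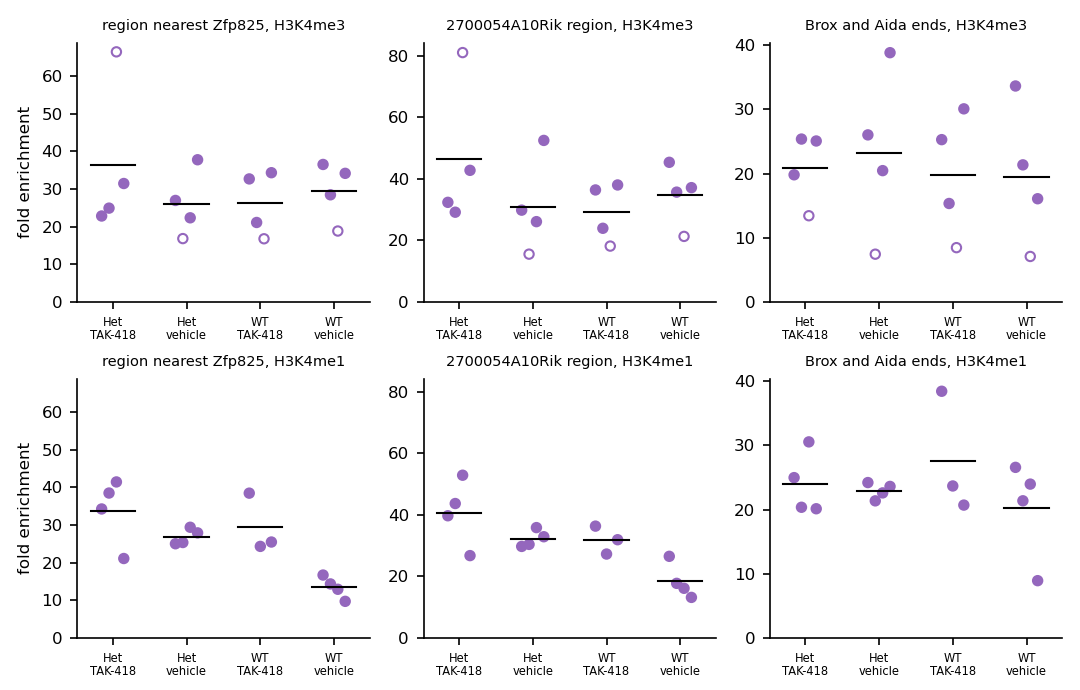
Fold enrichment per library at 3 recurring regions, by group, for H3K4me3 (top) and H3K4me1 (bottom); lines are group means and open points the 4 libraries with over 10000 peaks. In H3K4me1 the WT vehicle points lie lowest at the region nearest Zfp825 (9.71 to 16.7 fold), and in H3K4me3 the open points are the lowest of each group at Brox and Aida.

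The authors' deposited table of differential regions for each comparison gives 1 whole-number score per library, a −log10 p and a direction. The lists hold only regions with a −log10 p of at least 1.3, and regions below it are absent. A merged autosomal region counted as listed when it overlapped a listed region. Among H3K4me3 lists, 67 of the 150 recurring regions (44.7%) were listed for Het vehicle against WT vehicle, where 6.93% of all merged autosomal regions were. For Het TAK-418 against Het vehicle 111 (74%) were listed, beside 4.64%, for WT TAK-418 against WT vehicle 96 (64%), beside 9.92%, and for Het TAK-418 against WT vehicle 109 (72.7%), beside 9.59%. In H3K4me1, in the same order, 102 (68%), 86 (57.3%), 71 (47.3%) and 93 (62%) were listed, beside 0.723%, 0.643%, 0.599% and 0.67%. In all 139 of the 150 stood in at least 1 list and 24 in all 8. Neither count had a share over all merged autosomal regions computed, so neither is read as a trait of the recurring regions. Recurring regions were wider and were chosen on peaks of these same libraries, so these shares are a description. The mark of the 4 lists that name none was taken as H3K4me1.

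The listed directions at recurring regions differed from those elsewhere in the same list. Over the other autosomal regions the shares listed as higher were 10.7%, 64.3%, 62.3% and 20.7% in H3K4me3. In H3K4me1 they were 42.3%, 60.1%, 42.8% and 42%, both in the order used for the shares listed. The percentages set beside the counts that follow are of the whole list, which includes the recurring regions. For Het vehicle against WT vehicle in H3K4me3, 61 of 105 listed regions at recurring regions (58.1%) were higher in Het vehicle, whereas 14% of the whole list was higher. For Het TAK-418 against WT vehicle 165 of 181 (91.2%) were higher in Het TAK-418, beside 27.6%. For Het TAK-418 against Het vehicle the counts were 166 of 183 (90.7%), beside 68.5%, and for WT TAK-418 against WT vehicle 111 of 152 (73%), beside 63.6%. In H3K4me1 the shares listed as higher were 121 of 152 (79.6%) for Het vehicle against WT vehicle, beside 50.4%, 68 of 124 (54.8%) for Het TAK-418 against Het vehicle, beside 61.1%, 91 of 112 (81.2%) for WT TAK-418 against WT vehicle, beside 53.3%, and 109 of 135 (80.7%) for Het TAK-418 against WT vehicle, beside 52.1%. Comparisons that share a group share its scores.

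**Figure D4:**
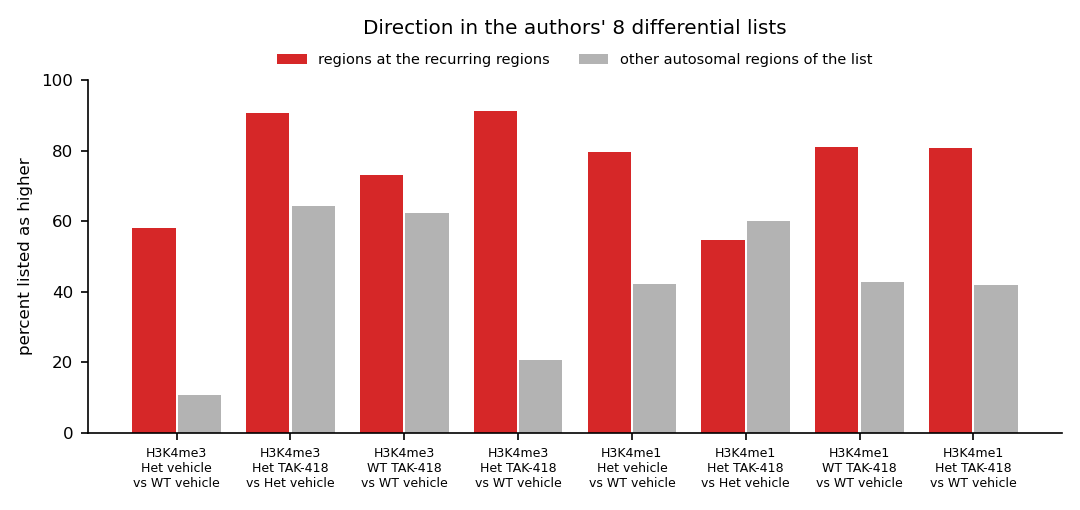
Percent of listed regions that the authors list as higher in the group named first, for regions at recurring regions and for the other autosomal regions of each of the 8 lists. The bars at recurring regions are the taller in 7 lists and the shorter in H3K4me1 of Het TAK-418 against Het vehicle (54.8% against 60.1%).

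One score position in each group went against the others in H3K4me3. Each score was divided by the mean of its region, and the median was taken per position, whose library the lists do not name. At recurring regions the low positions were the third of Het TAK-418 (0.588 and 0.659 in its 2 lists), the second of Het vehicle (0.139 and 0.167), the third of WT TAK-418 (0.262) and the third of WT vehicle (0.218 to 0.269), and all other positions lay between 0.827 and 1.49. Elsewhere in the same lists those positions were high, at 1.69 and 1.76, 1.15 and 1.19, 1.88, and 1.42 to 1.75, in the same order. The long-list libraries hold the same places when each group is ordered by mouse number. Whether the positions follow that order was not tested. With the second Het vehicle position left out, the share of listed regions at recurring regions with the higher mean in Het TAK-418 than in Het vehicle was 68.9%, against 90.7% with it. With the third WT vehicle position left out it was 79% for Het TAK-418 against WT vehicle and 57.9% for WT TAK-418 against WT vehicle. For Het vehicle against WT vehicle it was 33.3% without the third WT vehicle position, 30.5% without the fourth Het vehicle position and 74.3% without the second. These shares were computed at recurring regions only, with none for the rest of each list. Whether the directions still differ from the rest with a position left out was therefore not tested. In H3K4me1 the lowest position at recurring regions was 0.56.

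**Figure D5:**
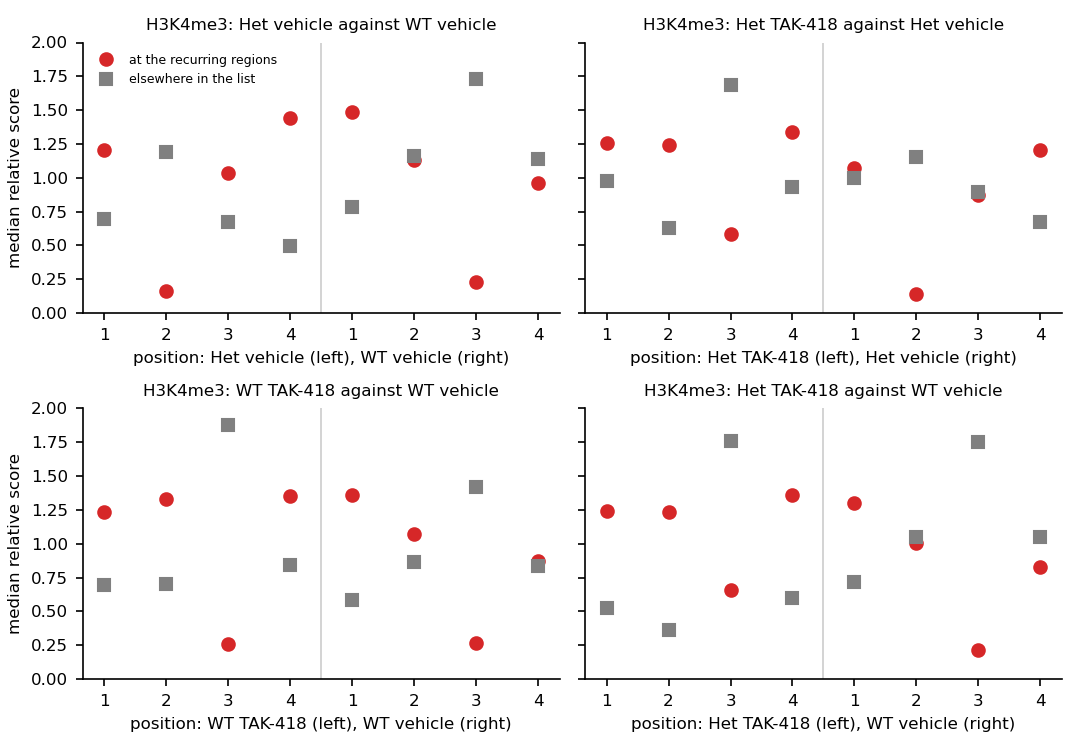
Median score of each position divided by the mean of its region, in the 4 H3K4me3 lists, at recurring regions (circles) and elsewhere in the list (squares); the group named first is left of the line. In every group 1 position is lowest at the recurring regions, 0.139 to 0.659, and above 1 elsewhere.

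limma on log2(score + 1) over each whole list called 0 regions in 7 of the lists (0% called) and 8 of 2722 (0.294%) for Het TAK-418 against WT vehicle in H3K4me3, none of them at a recurring region. Every listed region had already been selected by the authors' p between the same groups. The adjusted p, counts and shares here therefore describe that selected set and are no test over all regions. Unadjusted p was under 0.05 at 82 of 2015, 17 of 1715, 66 of 2780 and 174 of 2722 H3K4me3 regions over the whole lists. In H3K4me1 the counts were 41 of 781, 47 of 545, 52 of 538 and 102 of 656. At recurring regions they were 0 of 105, 1 of 183, 0 of 152 and 2 of 181 listed regions in H3K4me3. In H3K4me1 they were 20 of 152, 8 of 124, 13 of 112 and 26 of 135. The order is Het vehicle against WT vehicle, Het TAK-418 against Het vehicle, WT TAK-418 against WT vehicle and Het TAK-418 against WT vehicle. No test was made between these counts. The smallest adjusted p at a recurring region was 0.267. Groups did not overlap at 0 of 105, 0 of 183, 1 of 152 and 3 of 181 listed regions at recurring regions in H3K4me3, beside 2.03%, 0.35%, 0.54% and 0.404% of the lists. In H3K4me1 they did not overlap at 14 of 152 (9.21%), 8 of 124 (6.45%), 24 of 112 (21.4%) and 20 of 135 (14.8%), beside 3.97%, 6.42%, 13.6% and 8.99%.

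Several regions with a very small deposited p had groups that overlapped. At chr10:72297051-72297800, 357104 bases from Zwint, the authors' deposited table gives a p of 0 for H3K4me1 of Het TAK-418 against Het vehicle. The scores were 4359482, 3492007, 2916656 and 1690026 in Het TAK-418, against 4245109, 117869, 648645 and 3293564 in Het vehicle. The groups overlapped, and the exact two-sided permutation p was 0.371, with limma giving a log2 difference of 1.53 ± 1.09 and an adjusted p of 0.441. Inside Chl1 the authors' deposited table lists H3K4me3 of Het TAK-418 against WT vehicle as higher with a −log10 p of 160.8. The scores were 233740, 141081, 76433 and 202521 in Het TAK-418, against 214603, 135073, 47078 and 105793 in WT vehicle, and the exact permutation p was 0.486. At chr2:98666101-98667550 in the same list the deposited −log10 p was 139.7, with means of 7671446 ± 2856875 in Het TAK-418 and 6120251 ± 2528383 in WT vehicle (SD, n = 4 each, exact permutation p = 0.457).

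In H3K4me1 of Het TAK-418 against WT vehicle, the regions near Zfp825 and at 2700054A10Rik were listed gains with a deposited p of 0. These listed regions were chosen by that p, and their scores come from the same groups of libraries as the enrichment. The smallest adjusted p from limma at a recurring region in this list was 0.267, below that of both. At chr13:74528451-74531050 the authors' deposited table gives a p of 0 for Het TAK-418 against WT vehicle, and the scores were 8722, 9975, 9144 and 5599 in Het TAK-418, against 5290, 3629, 3570 and 2939 in WT vehicle. The groups did not overlap. The exact permutation p was 0.0286, the smallest that 4 against 4 allows, and limma gave a log2 difference of 1.12 ± 0.33 with an adjusted p of 0.271. At chr17:13550551-13553300 the scores were 8783, 10112, 10500 and 6009 in Het TAK-418, against 5755, 3749, 3568 and 3532 in WT vehicle, with the same exact p and an adjusted p of 0.271 from limma. At the Rn18s-rs5 region (chr17:39842901-39849050) they were 20145, 35287, 23420 and 18372, against 20009, 13837, 17049 and 13923, which overlapped (exact permutation p = 0.0571).

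Listed losses included regions with high scores and regions with low ones. For H3K4me1 of Het vehicle against WT vehicle the authors' deposited table gives a p of 0 for a loss at chr10:72297051-72297800, with mean scores of 2076738 ± 2010717 in Het vehicle and 3465820 ± 913390 in WT vehicle (SD, n = 4 each, exact permutation p = 0.286). Inside Chl1 (chr6:103648951-103649500) it lists H3K4me1 as lower in Het TAK-418, with 118028 ± 43018, than in Het vehicle, with 157380 ± 64374 (SD, n = 4 each, exact permutation p = 0.4). The groups overlapped at both. In Slc30a4, a zinc transporter gene (chr2:122681251-122682300), H3K4me1 scored 209, 133, 145 and 135 in Het TAK-418, against 262, 219, 387 and 282 in WT vehicle, without overlap (exact permutation p = 0.0286, adjusted p 0.276 from limma). At Rpl19-ps1 in the Sp110 cluster (chr1:85010051-85010500) the scores were 37, 55, 108 and 86 in Het TAK-418, against 177, 132, 170 and 83 in WT vehicle, which overlapped (exact permutation p = 0.0857). In the same cluster, near Gm7609 (chr1:85180451-85180750), H3K4me1 scored 56, 58, 12 and 35 in Het vehicle, against 161, 79, 58 and 101 in WT vehicle (exact permutation p = 0.0571). At Zfp992 (chr4:146450251-146450600) it scored 58, 92 and 63 in WT TAK-418, against 122, 165, 101 and 126 in WT vehicle, without overlap (exact permutation p = 0.0571). In H3K4me3, chr8:20423851-20424950 in the chromosome 8 cluster scored 313, 449, 227 and 196 in Het vehicle, against 316, 504, 458 and 448 in WT vehicle (exact permutation p = 0.0857).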

How the data were processed

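The deposited files were 31 peak lists and 8 lists of differential regions. The submitters' processing notes name mm10, MACS2, MACS and bedtools, with no version or role, and the aligner, input, duplicate handling and any exclusion list are not given in the sources used here. In the deposited lists a peak carries the authors' fold enrichment (a ratio over the local background, column 7), a −log10 p and a −log10 q, in the MACS2 broad-peak layout. Each deposited differential region carries the authors' −log10 p and 1 score per library, a whole number of unstated normalization and unnamed library. No counts were used, so sequencing depth and the precision of a single value are unknown.

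Peaks were merged with an overlap of 1 base. A library's value at a region was its highest peak, and a library without a peak was left out there. Genes came from RefSeq (GRCm38.p6), matched by coordinates to mm10. limma 3.58.1 (R 4.3.3) was fitted to log2 values over whole tables with Benjamini-Hochberg adjustment, each group's libraries as replicates. Single listed regions were tested by exact two-sided permutation of the group labels. Fits were tested on simulated data. Other tools were scipy 1.17.1, pandas 2.3.3 and numpy 2.4.6 under Python 3.11.15, with figures drawn in matplotlib 3.10.9. The regions, family lists and markers were chosen with earlier results of these data known. Named regions were those with a peak in most libraries, with the highest enrichment or most extreme ratio, and the 3 higher and 3 lower of each list with the largest −log10 p; the promoters, small RNA regions and other single genes were chosen after their values were seen. The 500 kb gap for clusters and the limit of 3.5 Mb were also set after seeing the data.

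Libraries of both marks came from the same mouse for 15 mice, so mouse numbers pair them. The deviations of the pairs from their marks' means correlated at -0.184 to 0.586 over 43 regions, above 0.1 in 9 of 15. The fit with the mouse as a replicate block called 0 of 172 regions, as did the fit without it of 175. Differences between libraries of a group may include technical spread, which p-values over mice also hold.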

Additional observations from a re-analysis of the deposited data

Results flagged for a closer look

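Values are flagged where 1 library stood apart from the other 3 of its group, at a rate that chance gives in about 1 in 20 groups; 9 of 104 groups tested were flagged. Het TAK-418 mouse 815 had H3K4me1 peaks in 100 recurring regions, against 115 to 118 in the other 3 mice. In H3K4me3 lists the low scores were 3402 for Het vehicle at Rn18s-rs5 (chr17:39844901-39846950), 67 for Het TAK-418 near Gm7592 (chr1:85341801-85342500), 143 for WT vehicle near Gm32719 (chr12:20232901-20234100) and 0 for WT vehicle near Zfp600 (chr4:146169201-146169550). Each of these low scores stood at the position that was lowest in its group at recurring regions throughout the H3K4me3 lists. These flags repeat that pattern, so they are not separate outliers to set against the chance rate. In H3K4me1 lists the first WT vehicle position was the high one at 2700054A10Rik in all 3 comparisons with WT vehicle, with scores of 6282, 5981 and 5755. The first Het TAK-418 position was the high one at Slc30a4, with a score of 209.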

How the results depend on the processing

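The number of recurring regions was 59 when a library counted only where its peaks covered 50% of the region, and 60 with peaks of a −log10 q of at least 5, with 14 and 17 at gene ends; 94 of the 150 had a gene end within 10 kb. The percent listed as higher in H3K4me1 was 85.6 (Het vehicle against WT vehicle), 90 (WT TAK-418 against WT vehicle) and 90.2 (Het TAK-418 against WT vehicle) with the 50% cover, and in H3K4me3 it was 96.4 (Het TAK-418 against WT vehicle). With the q limit it was 94.9 (H3K4me3, Het TAK-418 against Het vehicle), 95.4 (H3K4me3, Het TAK-418 against WT vehicle), 90.9 (H3K4me1, WT TAK-418 against WT vehicle) and 89.7 (H3K4me1, Het TAK-418 against WT vehicle). Without the width limit it was 82.3 (H3K4me3) and 41.8 (H3K4me1) for Het TAK-418 against Het vehicle and 72.4 for H3K4me1 of Het TAK-418 against WT vehicle. With 1 score position left out, an alternative chosen after seeing the data, it ranged from 30.5 to 74.3, 68.9 to 92.9, 57.9 to 77.6 and 79 to 91.7 in the 4 H3K4me3 lists in the report's order, and from 46 to 57.3 in H3K4me1 of Het TAK-418 against Het vehicle. The 8 scores called by limma for H3K4me3 of Het TAK-418 against WT vehicle were 0 with a pseudocount of 0.5 or 8, with centring on the list median and with trend and robust, and 0 to 11 with 1 position left out. The same left-out fits gave 0 to 1 calls for H3K4me3 of Het TAK-418 against Het vehicle, 0 to 3 for H3K4me3 and 0 to 1 for H3K4me1 of WT TAK-418 against WT vehicle. H3K4me1 enrichment calls were 2 with centring and 3 to 6 with 1 library left out for Het TAK-418 against WT vehicle. For Het vehicle against WT vehicle they were 0 with centring, 3 with at least 3 libraries in every group and 0 to 3 with 1 library left out, and for WT TAK-418 against WT vehicle 0 to 3. H3K4me3 against H3K4me1 gave 4 calls without the 4 long lists, 0 to 2 with 1 library left out, and 0 with the mouse as a replicate block. The cause of these changes was not tested. Depth is unknown.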
